A study of Homo sapiens with 6 samples.

Results

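The 2 populations of SW480 cells in which PCYT2 was lowered by different short hairpin RNAs were set against each other: the 2 libraries of the second hairpin (shPCYT2-2) against the 2 libraries of the first (shPCYT2-1), out of 6 libraries in all. Both had low PCYT2, and the question was which genes and pathways set the knockdown populations apart. The members were the genes with a mean of at least 0.5 FPKM over these 4 libraries, 12771 of the 19655 genes in the tables, of which 11960 are protein-coding. FPKM counts the sequenced fragments of a gene relative to its length and to the library's total. A positive difference is higher with shPCYT2-2, a negative one higher with shPCYT2-1, and differences are on the log2(FPKM + 1) scale, which understates the change of low genes, with ± the standard error of the fit.

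SW480 is an established line from a human colorectal adenocarcinoma. All cells had been infected with a lentiviral vector of the pLKO.1 type that carries a hairpin and were selected in puromycin. The 2 control libraries came from cells with a nontargeting hairpin (shNT), and the other 4 from cells with shPCYT2-1 (2 libraries) or shPCYT2-2 (2 libraries). The sources used here do not say whether the libraries of a hairpin came from separate infections, clones or cultures. The p-values then measure only the spread between these libraries, which may be technical, and the effect of a hairpin cannot be told apart from that of the infection and selection it went through. The labels name 2 library kits without assigning them to libraries, so their part in any difference was not tested. The libraries also differed in depth: in units of the reciprocal of what a single fragment is worth, a relative measure, shNT lay at 26.3 and 23.5, shPCYT2-1 at 19.4 and 25.6, and shPCYT2-2 at 25.2 and 21.5, so the groups overlapped.

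PCYT2 is the enzyme that joins CTP and phosphoethanolamine to CDP-ethanolamine, the step that limits the synthesis of phosphatidylethanolamine in the endoplasmic reticulum. RNA interference with a short hairpin lowers the target through a guide strand, and guides of different sequence share the target but not every other transcript that they may pair with. Hairpins against the same gene are for this reason usually read side by side. The hairpin sequences were not used here, so pairing with other transcripts was not tested.

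PCYT2 (ENSG00000185813, chr17:81900965-81911464, minus strand, GRCh38) lay at 11.6 and 13.8 FPKM in the shNT libraries. It lay at 7.11 and 7.36 FPKM with shPCYT2-1 and at 6.71 and 6.18 FPKM with shPCYT2-2. All 4 hairpin libraries were below both controls, and those of the hairpins did not overlap each other. Between the hairpins it differed by -0.15 ± 0.10 (limma adjusted p = 0.309), with a 95% confidence interval -0.37 to 0.08. The target itself thus did not pass the test between the hairpins.

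The populations differed widely at the level of RNA. Across the tested genes, 3477 passed at a limma adjusted p under 0.05 (27.2% of those tested), 1648 higher (12.9%) and 1829 lower (14.3%) with shPCYT2-2. At an unadjusted p under 0.05 there were 5136. Most differences were small. The median absolute difference was 0.43 among the genes that passed and 0.18 among all tested genes, at a median SE of 0.10, and 126 genes (0.987%) passed with an absolute difference over 1, 80 higher and 46 lower. The libraries of the hairpins did not overlap for 8596 genes (67.3%), among them all 3477 that passed. Of the genes that passed, 155 (4.46%) had a mean under 0.5 FPKM with one of the hairpins and reached the limit only through the other, so they had to differ and their p supports nothing. Of the genes described below by their values, these are SCG2, PRR20E, DES, BTC, TGFBR3 and PDGFRB. The number of genes that passed fell to 1691 without shPCYT2-1 replicate 1, 1904 without shPCYT2-2 replicate 2, 2094 without shPCYT2-1 replicate 2, and 2317 without shPCYT2-2 replicate 1. Set against shNT by the same limma fit, 3388 genes (26.5%) passed with shPCYT2-1 and 1589 (12.4%) with shPCYT2-2. These comparisons share the shNT libraries, and the values of each are given side by side where they are used below.

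**Figure D1:**
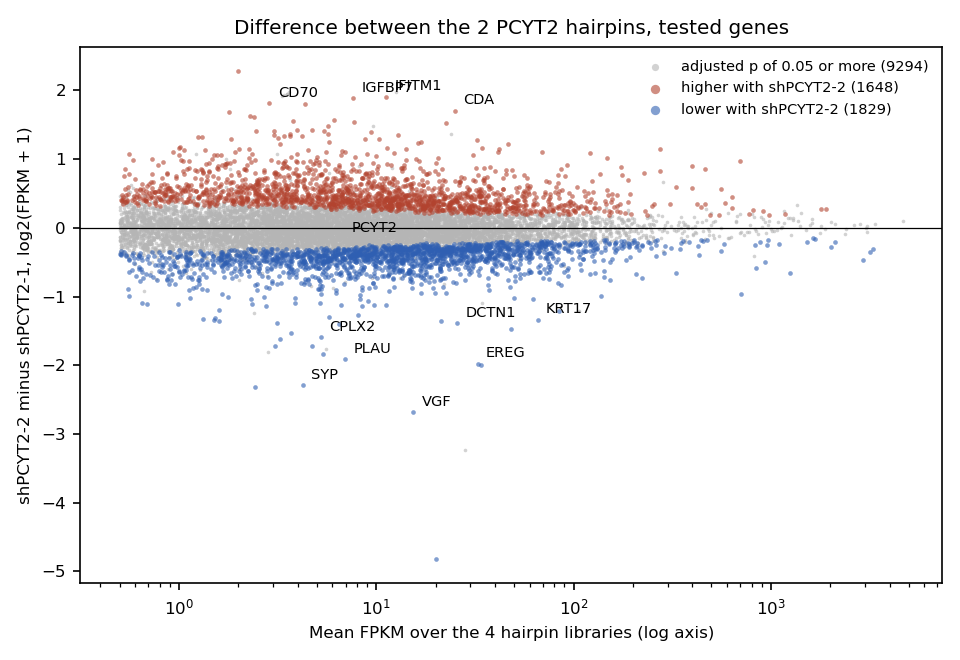
Difference between the hairpins (y axis, shPCYT2-2 minus shPCYT2-1, log2(FPKM + 1)) against the mean FPKM over the 4 hairpin libraries (x axis, log axis), 1 point a tested gene, with the 1648 genes higher and 1829 genes lower with shPCYT2-2 in colour and the other 9294 in grey. Most points lie within 1 unit of 0, VGF and SYP are among the lowest, and PCYT2 lies near 0.

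In a principal component analysis of the tested genes, the first component (48.4% of the variance) held the shPCYT2-1 libraries at 23.3 and 19.9, the shNT libraries at -6.4 and -8.5 and the shPCYT2-2 libraries at -11.9 and -16.5. The second component (26.1%) held shPCYT2-2 at -14.3 and -10.3, shPCYT2-1 at -3.7 and -1.2 and shNT at 10.9 and 18.7. The first axis thus set shPCYT2-1 apart, and the second set shNT apart from both hairpins. The mean absolute difference per gene was 0.110 between the shPCYT2-1 libraries and 0.144 between the shPCYT2-2 libraries, and lay between 0.247 and 0.275 for a library of one hairpin against a library of the other.

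**Figure D2:**
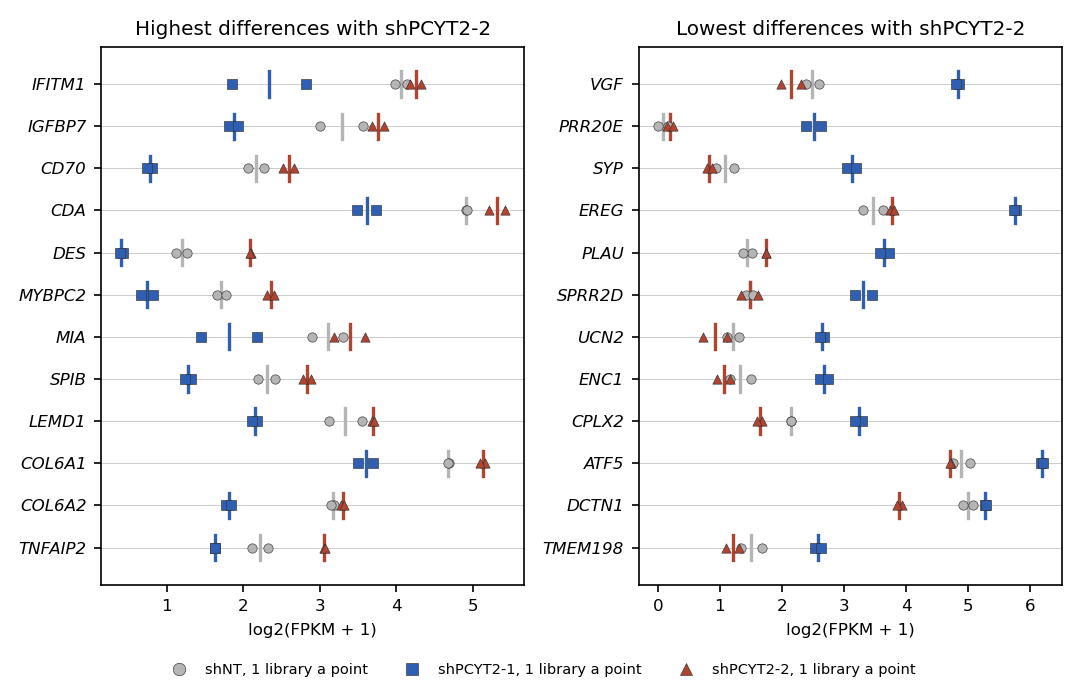
log2(FPKM + 1) in each of the 6 libraries (x axis, 1 point a library, vertical ticks at group means) for the 12 genes with the largest differences in each direction (y axis). For the genes on the right, the shPCYT2-1 libraries lie to the right of all others, and DCTN1 is the gene whose shPCYT2-2 libraries lie farthest below both shNT libraries.

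Among the 12 named genes lowest with shPCYT2-2 relative to shPCYT2-1, VGF had the largest difference, and VGF, SYP and CPLX2 belong to regulated secretion, the release of stored peptides and transmitters that is typical of neuroendocrine cells. The genes are given by role and not by the size of the difference. VGF (ENSG00000128564, chr7:101162509-101165593, minus strand), a granin-like precursor of secreted neuropeptides, lay at 27.8 and 27.01 FPKM with shPCYT2-1, 2.97 and 3.93 FPKM with shPCYT2-2 and 4.21 and 5.03 FPKM with shNT. The shPCYT2-1 libraries were far above all 4 others, and shPCYT2-2 minus shPCYT2-1 came to -2.68 ± 0.12 (limma adjusted p = 2.11e-05), a ratio of means of shPCYT2-1 to shPCYT2-2 of 7.94. SYP (ENSG00000102003, chrX:49187804-49200259, minus strand), which encodes synaptophysin of small secretory vesicles, lay at 7.27 and 8.16 FPKM with shPCYT2-1 against 0.722 and 0.828 FPKM with shPCYT2-2 and 0.910 and 1.35 FPKM with shNT. It showed the same order, with a difference of -2.29 ± 0.13 (limma adjusted p = 2.11e-05). CPLX2 (ENSG00000145920, chr5:175796310-175884020, plus strand), a complexin that clamps the fusion of vesicles, lay at 8.75 and 8.05 FPKM with shPCYT2-1, 2.20 and 2.03 FPKM with shPCYT2-2 and 3.44 and 3.41 FPKM with shNT. Here the hairpins lay on opposite sides of both controls (-1.59 ± 0.10, limma adjusted p = 3.05e-05). SCG2 of the granule list, which encodes the granin secretogranin II, was listed at 1.07 and 1.09 FPKM with shPCYT2-1 and at 0 and 0.0838 FPKM with shPCYT2-2 (-0.997 ± 0.11, limma adjusted p = 0.000445), so that it reached the FPKM limit only through shPCYT2-1 and is no support for the list. Of the 13 neuroendocrine granule genes tested, 2 were higher and 5 lower (median -0.21), and 4 passed without shPCYT2-1 replicate 1. Without SCG2, under 0.5 FPKM with 1 hairpin, 2 of 12 were higher and 4 lower. The 2 that were higher were UCHL1 (0.64 ± 0.16, limma adjusted p = 0.0186), which did not pass without shPCYT2-1 replicate 1 or shPCYT2-2 replicate 1, and GAL (0.29 ± 0.08, limma adjusted p = 0.0199), which did not pass without shPCYT2-1 replicate 1, shPCYT2-1 replicate 2, shPCYT2-2 replicate 1 or shPCYT2-2 replicate 2. With a library left out, UCHL1 lay between 0.38 and 0.90 and GAL between 0.29 and 0.30.

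The same direction held for EREG, PLAU, UCN2 and ATF5. EREG (ENSG00000124882, chr4:74365143-74388751, plus strand), which encodes epiregulin, a ligand of the EGF receptor, lay at 53.2 and 52.1 FPKM with shPCYT2-1, 12.3 and 12.9 FPKM with shPCYT2-2 and 11.4 and 8.85 FPKM with shNT. Its difference was -1.98 ± 0.10 (limma adjusted p = 2.11e-05), a ratio of means of shPCYT2-1 to shPCYT2-2 of 4.17, with the shPCYT2-2 libraries just above the controls. PLAU (ENSG00000122861, chr10:73909177-73917497, plus strand), the plasminogen activator urokinase, had a difference of -1.91 ± 0.10 (limma adjusted p = 2.11e-05), and its shPCYT2-1 libraries (12.2 and 10.9 FPKM) again stood apart from shPCYT2-2 (2.33 and 2.36 FPKM). UCN2 (ENSG00000145040, chr3:48561727-48563773, minus strand), a peptide of the corticotropin-releasing factor family, lay at 5.42 and 5.08 FPKM with shPCYT2-1 and 1.17 and 0.660 FPKM with shPCYT2-2 (-1.72 ± 0.14, limma adjusted p = 0.000119). ATF5 (ENSG00000169136, chr19:49928702-49933935, plus strand), a transcription factor of the stress response, was the most abundant of these genes, at 70.7 and 72.4 FPKM with shPCYT2-1 and 25.3 and 25.1 FPKM with shPCYT2-2. Its controls (25.9 and 31.6 FPKM) lay with shPCYT2-2, and the difference was -1.47 ± 0.09 (limma adjusted p = 3.05e-05).

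Of the other genes in this direction, SPRR2D, a small proline-rich protein of the cornified envelope, had a difference of -1.83, ENC1, an actin-binding BTB-kelch protein, -1.62 and TMEM198, a membrane protein, -1.38, with limma adjusted p of 6.8e-05, 0.000135 and 0.000286. Of the genes that passed, 11 were readthrough genes, which overlap the neighbours they join and are uncertain, and none of them is named. PRR20E (-2.31 ± 0.12, limma adjusted p = 2.11e-05) belongs to a family of near-identical copies, so its value is uncertain. It lay at 5.17 and 4.26 FPKM with shPCYT2-1 and was under 0.2 FPKM in the other 4 libraries. PRR20E thus reached the FPKM limit only through shPCYT2-1, and its p is no support.

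DCTN1 had the largest fall from shNT with shPCYT2-2 among the 12 genes in this direction. The gene (ENSG00000204843, chr2:74361154-74392087, minus strand) encodes the largest subunit of dynactin, the activator of the dynein motor. It lay at 14.2 and 13.4 FPKM with shPCYT2-2, below both shNT libraries (29.3 and 32.7 FPKM), and at 37.5 and 37.9 FPKM with shPCYT2-1, above them. Its difference between the hairpins came to -1.39 ± 0.08 (limma adjusted p = 2.11e-05), made of -1.11 against shNT with shPCYT2-2 and 0.28 with shPCYT2-1.

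The genes that were higher with shPCYT2-2 were led by IFITM1, IGFBP7 and CD70, and their shPCYT2-1 libraries lay below the controls. IFITM1 (ENSG00000185885, chr11:313506-315272, plus strand), an interferon-inducible membrane protein, lay at 2.62 and 6.09 FPKM with shPCYT2-1, 17.2 and 18.96 FPKM with shPCYT2-2 and 16.6 and 14.8 FPKM with shNT. Its shPCYT2-1 libraries stood apart from each other but below all 4 others, and shPCYT2-2 minus shPCYT2-1 came to 1.91 ± 0.24 (limma adjusted p = 0.000852). IGFBP7 (ENSG00000163453, chr4:57030773-57110385, minus strand), a secreted binding protein of insulin-like growth factors, lay at 2.52 and 2.83 FPKM with shPCYT2-1 and 11.9 and 13.3 FPKM with shPCYT2-2, and both shNT libraries (7.05 and 10.8 FPKM) fell between (1.88 ± 0.16, limma adjusted p = 0.000135). CD70 (ENSG00000125726, chr19:6583183-6604103, minus strand), the ligand of the TNF receptor family member CD27, lay at 0.752 and 0.678 FPKM with shPCYT2-1, 5.31 and 4.76 FPKM with shPCYT2-2 and 3.18 and 3.82 FPKM with shNT. Its difference was 1.81 ± 0.11 (limma adjusted p = 3.46e-05), a ratio of means of shPCYT2-2 to shPCYT2-1 of 7.04. CDA (ENSG00000158825, chr1:20588948-20618908, plus strand), cytidine deaminase of pyrimidine salvage, lay at 10.2 and 12.3 FPKM with shPCYT2-1 and 36.1 and 41.9 FPKM with shPCYT2-2 (1.71 ± 0.10, limma adjusted p = 2.98e-05), on both sides of its controls (29.1 and 29.3 FPKM).

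DES (ENSG00000175084, chr2:219418377-219426739, plus strand), the intermediate filament desmin, lay at 0.343 and 0.314 FPKM with shPCYT2-1 and 3.28 and 3.24 FPKM with shPCYT2-2. Its difference of 1.68 ± 0.11 (limma adjusted p = 3.47e-05) corresponds to a ratio of means of shPCYT2-2 to shPCYT2-1 of 9.93 between low levels. DES reached the FPKM limit only through shPCYT2-2, so its p is no support. MYBPC2, a myosin-binding protein of fast muscle, and SPIB, an ETS transcription factor, are neighbours on chromosome 19 with 1590 bases between them. MYBPC2 had a difference of 1.61 ± 0.11 (limma adjusted p = 5.67e-05) and SPIB of 1.56 ± 0.11 (limma adjusted p = 6.8e-05). COL6A1 and COL6A2, chains of collagen VI that lie 93047 bases apart on chromosome 21, moved together. COL6A1 lay at 10.3 and 11.99 FPKM with shPCYT2-1, 34.8 and 33.2 FPKM with shPCYT2-2 and 24.7 and 24.6 FPKM with shNT (1.53 ± 0.08, limma adjusted p = 2.11e-05), and COL6A2 differed by 1.49 ± 0.09 (limma adjusted p = 3.05e-05). The leading genes were chosen among those without overlap of the hairpin libraries, so the lack of overlap for either chain adds no support. The remaining 3 were LEMD1, a LEM domain protein (1.54), MIA, a secreted protein of melanoma cells (1.58), and TNFAIP2, a gene induced by TNF (1.43), at limma adjusted p of 0.000135, 0.00169 and 6.8e-05.

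The proximal promoters of the 12 leading genes in each direction were searched for letters of the motifs that AP-1, TEAD and the SNAI and ZEB repressors are known to bind. Of these genes, 17 had a promoter entry, and 7 of the 17 held such letters in the bases before the start. The promoters of 5 of the 7 are shown, at most 4 in a direction by size of difference. The sequences are RefSeq's (GRCh38.p14), the 250 bases before the annotated start, 5′ to 3′ on the strand of the gene. Capitals mark matches to TGANTCA (AP-1), GGAATG (TEAD) or CAGGTG (an E-box), searched on both strands, and no match overlaps another. UCN2 and ATF5 hold AP-1 letters, SYP holds TEAD letters, EREG holds TEAD and E-box letters, and CDA, of the genes higher with shPCYT2-2, holds E-box letters. DCTN1 and TMEM198, not shown, hold E-box letters too.
UCN2 promoter, chr3:48563782-48564031, minus strand: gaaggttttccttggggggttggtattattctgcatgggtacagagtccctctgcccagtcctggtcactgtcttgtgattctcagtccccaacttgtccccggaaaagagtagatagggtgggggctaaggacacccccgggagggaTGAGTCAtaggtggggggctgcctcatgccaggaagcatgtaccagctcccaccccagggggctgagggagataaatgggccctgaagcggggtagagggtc
ATF5 promoter, chr19:49928656-49928905, plus strand: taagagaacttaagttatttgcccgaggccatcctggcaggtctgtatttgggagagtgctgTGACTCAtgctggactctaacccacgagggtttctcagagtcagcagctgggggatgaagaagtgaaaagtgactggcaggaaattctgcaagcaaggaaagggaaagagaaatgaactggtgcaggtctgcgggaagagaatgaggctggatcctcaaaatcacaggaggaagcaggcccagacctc
SYP promoter, chrX:49200194-49200443, minus strand: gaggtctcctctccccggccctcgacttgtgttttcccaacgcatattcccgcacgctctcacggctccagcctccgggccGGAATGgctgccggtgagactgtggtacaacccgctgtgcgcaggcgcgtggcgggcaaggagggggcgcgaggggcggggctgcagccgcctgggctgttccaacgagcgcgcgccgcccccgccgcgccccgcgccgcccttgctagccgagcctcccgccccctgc
EREG promoter, chr4:74364895-74365144, plus strand: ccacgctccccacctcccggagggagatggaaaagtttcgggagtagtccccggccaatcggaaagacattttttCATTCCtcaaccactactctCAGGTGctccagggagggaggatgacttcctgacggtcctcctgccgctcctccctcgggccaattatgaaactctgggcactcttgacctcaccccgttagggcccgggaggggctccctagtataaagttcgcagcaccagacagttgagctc
CDA promoter, chr1:20588847-20589096, plus strand: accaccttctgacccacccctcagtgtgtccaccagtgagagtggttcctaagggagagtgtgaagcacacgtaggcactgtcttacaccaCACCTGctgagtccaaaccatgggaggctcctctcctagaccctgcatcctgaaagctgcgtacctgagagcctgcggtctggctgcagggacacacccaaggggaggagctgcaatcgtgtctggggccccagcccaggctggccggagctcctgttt

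Over windows from 250 bases before to 50 after the start, the AP-1 letters occurred in 4.31% of the 10090 tested genes with an entry. They occurred in 5.03% of the 1253 genes higher and 4.91% of the 1467 genes lower with shPCYT2-2. Among genes lower by over 1 they occurred in 5 of 29 promoters (17.2%), and among genes higher by over 1 in 5 of 58 (8.62%). The TEAD letters occurred in 10.7% of tested genes, 5 of the 29 (17.2%) and 8 of the 58 (13.8%), and the E-box letters in 19.0%, 12 of the 29 (41.4%) and 13 of the 58 (22.4%). Over all genes that passed, the TEAD letters occurred in 11.4% of those higher and 11.7% of those lower with shPCYT2-2. The E-box letters occurred in 18.2% and 19.3% of these, near the 19.0% of tested genes. These shares are descriptions of letters in a window, with few promoters in the extreme groups, and a match is not a binding site.

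The gene lists were read by their counts, beside the 12.9% of all tested genes that were higher and the 14.3% that were lower with shPCYT2-2, and beside a median difference over all tested genes of -0.02. Where leaving out 1 library moved the count of a list by over 1.5 times, the lowest or highest such count is given with the library left out, and likewise a median of at least 0.1 in size that moved by over 1.5 times. Of the lists with at least 10 tested members, the highest shares passed among keratins (80.0%), Eph receptors and ephrins (78.6%), the EGF family (63.6%) and YAP and TAZ targets (57.1%). With all 6 libraries, the mitosis, sterol, ribosomal protein, phosphatidylcholine, interferon and respiratory chain lists lay below the 27.2% of all tested genes. By this share, these lists held no excess of genes that passed. Where a list held genes that passed after reaching the limit only through 1 hairpin, the counts without such members are also given, and without them the share of the EGF family was 66.7%.

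**Figure D3:**
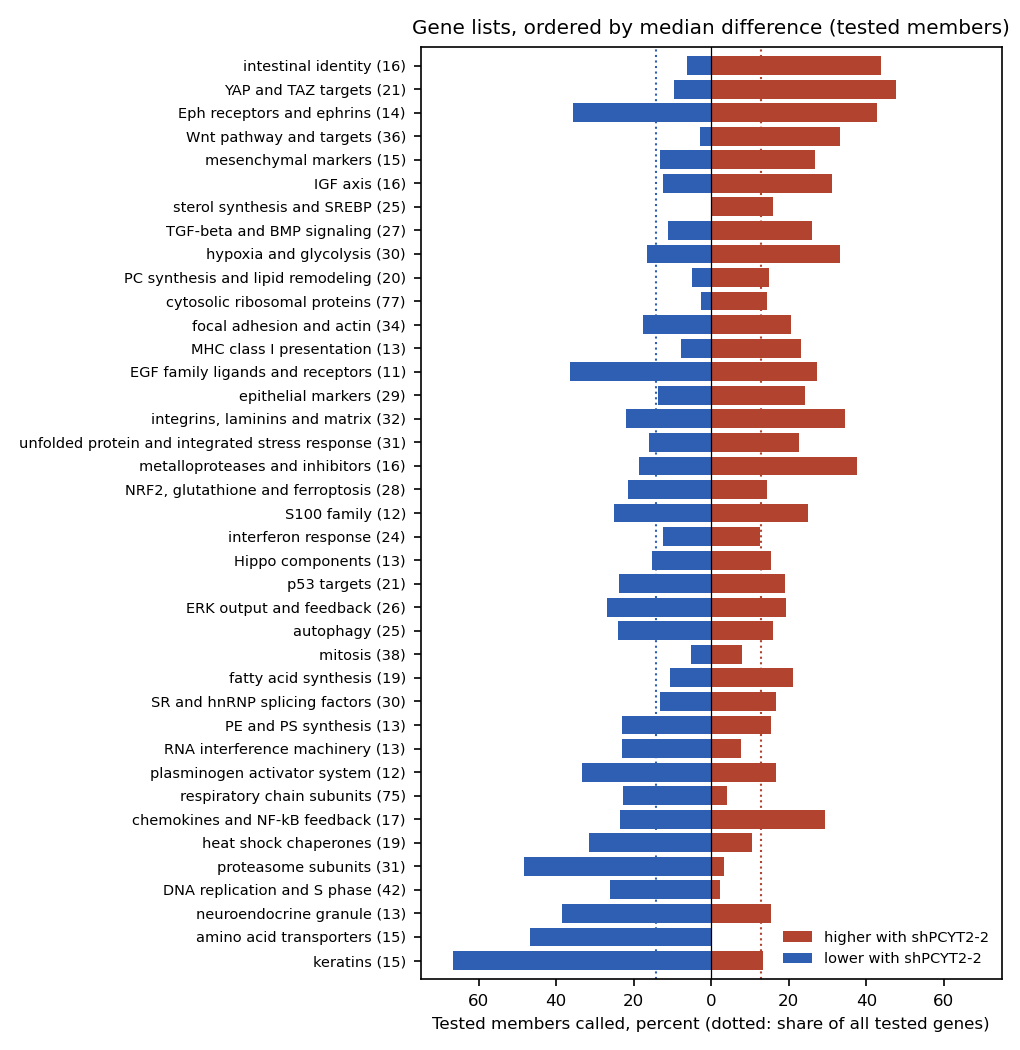
Percent of tested members (x axis) higher (right) and lower (left) with shPCYT2-2 for each list with at least 10 tested members (y axis, number tested in brackets), ordered by median difference. Dotted lines mark 12.9% and 14.3%, the shares of all tested genes, and keratins and amino acid transporters lie at the lower end.

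Keratins, the intermediate filaments of epithelia, had the lowest median. Of the 15 keratins tested, 2 were higher and 10 lower (median -0.43). KRT17, a keratin of stressed and basal epithelium, lay at 87.1 and 102 FPKM with shPCYT2-1, 33.8 and 40.1 FPKM with shPCYT2-2 and 49.8 and 48.3 FPKM with shNT. The hairpins lay on opposite sides of the controls (-1.34 ± 0.10, limma adjusted p = 6.82e-05). KRT16 differed by -1.06 ± 0.13 (limma adjusted p = 0.000672), with shPCYT2-1 (11.5 and 13.8 FPKM) at the level of shNT (13.4 and 11.99 FPKM) and shPCYT2-2 (4.81 and 6.31 FPKM) below it. KRT16 and KRT17 have close copies elsewhere in the genome, so reads may be split between them. KRT7 differed by -0.97 ± 0.12 (limma adjusted p = 0.000762). The abundant pair of simple epithelia, KRT8 and KRT18, was lower as well. KRT8 lay at 3540.2 and 3649 FPKM with shPCYT2-1 and 2734 and 2874 FPKM with shPCYT2-2 (-0.36 ± 0.06, limma adjusted p = 0.00203), and KRT18 at 3437 and 3394 FPKM and 2396 and 2522 FPKM (-0.47 ± 0.05, limma adjusted p = 0.000561). For both, the shNT libraries lay with shPCYT2-1 and above both shPCYT2-2 libraries. KRT15 (0.60 ± 0.09, limma adjusted p = 0.00198) and KRT86 (0.72 ± 0.13, limma adjusted p = 0.00397) were the 2 keratins higher with shPCYT2-2, and KRT86 has a close paralog in KRT81.

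In the EGF family, the receptors that passed were higher with shPCYT2-2 and most of the ligands that passed were lower. Of the 11 family genes tested, 3 were higher and 4 lower (median 0.05), and 4 passed without shPCYT2-1 replicate 2. Without BTC and 1 that did not pass, under 0.5 FPKM with 1 hairpin, 3 of 9 were higher and 3 lower. The receptors EGFR (2.08 and 2.06 FPKM with shPCYT2-1, 4.32 and 4.004 FPKM with shPCYT2-2, 0.75 ± 0.10, limma adjusted p = 0.000959) and ERBB2 (14.4 and 14.9 and 20.6 and 19.6 FPKM, 0.43 ± 0.08, limma adjusted p = 0.00487) were higher with shPCYT2-2. The ligand TGFA, transforming growth factor alpha, was lower (20.1 and 21.5 FPKM against 12.3 and 12.9 FPKM, -0.68 ± 0.08, limma adjusted p = 0.000576), as were EREG, above, and BTC and AREG. HBEGF was the exception among ligands, being higher. BTC passed at 0.0401 and HBEGF at 0.0364 (limma adjusted p). BTC did not pass without shPCYT2-1 replicate 1, shPCYT2-1 replicate 2, shPCYT2-2 replicate 1 or shPCYT2-2 replicate 2, and HBEGF did not pass without shPCYT2-1 replicate 1, shPCYT2-1 replicate 2 or shPCYT2-2 replicate 2.

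Eph receptors and the ephrins that bind them, which guide the sorting of cells along the intestinal crypt, passed in both directions. Of the 14 family genes tested, 6 were higher and 5 lower (median 0.24, but 0.15 without shPCYT2-1 replicate 1), and 4 passed without shPCYT2-2 replicate 2. The ligands EFNB3 (2.17 and 2.16 FPKM with shPCYT2-1, 4.52 and 4.14 FPKM with shPCYT2-2, 0.75 ± 0.10, limma adjusted p = 0.00102) and EFNA3 (16.2 and 18.2 and 25.6 and 24.9 FPKM, 0.53 ± 0.08, limma adjusted p = 0.002) were higher with shPCYT2-2. The receptor EPHA2 was lower (79.6 and 86.4 FPKM against 50.3 and 54.98 FPKM, -0.65 ± 0.08, limma adjusted p = 0.000576), and its shNT libraries (68.1 and 74.4 FPKM) lay between. EPHB3, EPHA4 and EPHB6 also passed, but not with every library left out: EPHB3 did not without shPCYT2-1 replicate 1, shPCYT2-2 replicate 1 or shPCYT2-2 replicate 2, EPHA4 not without shPCYT2-1 replicate 1 or shPCYT2-2 replicate 2 and EPHB6 not without shPCYT2-2 replicate 2.

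**Figure D4:**
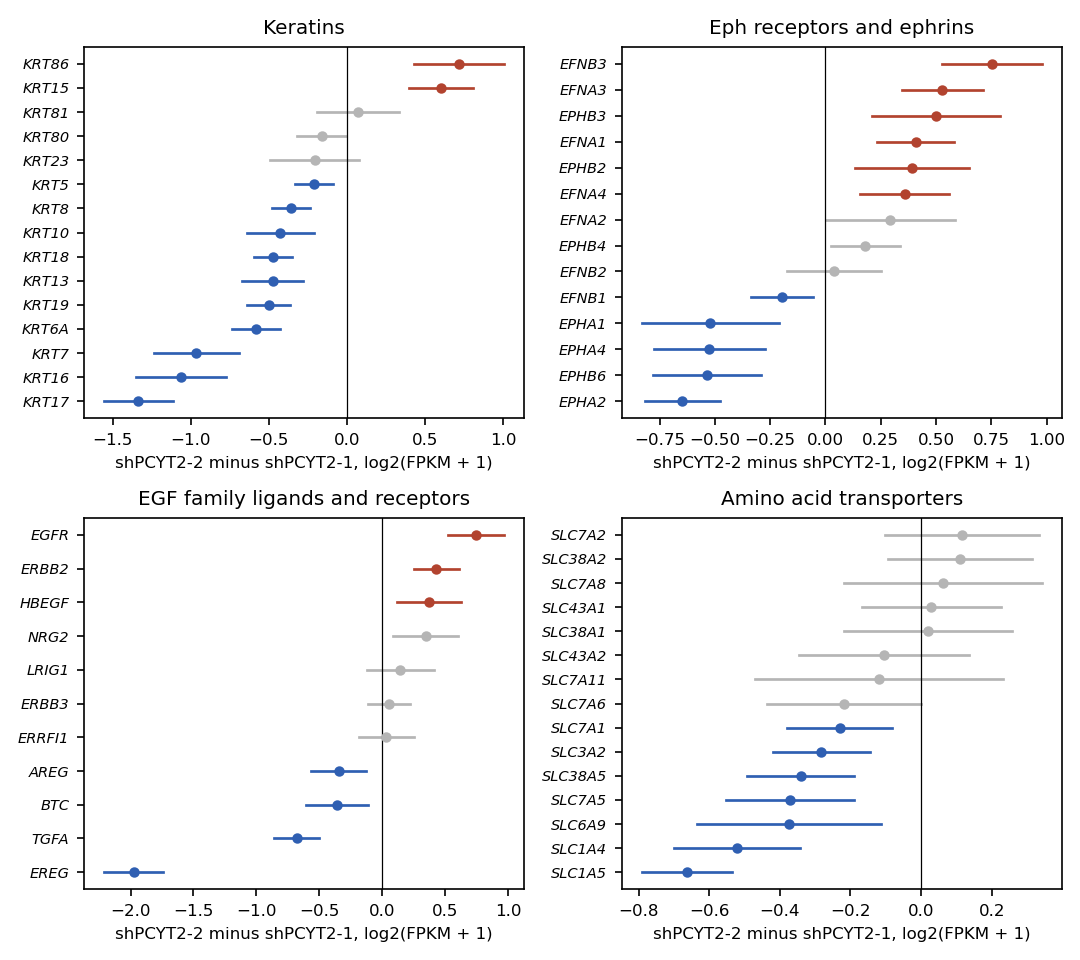
Difference between the hairpins with its 95% confidence interval (x axis, log2(FPKM + 1)) for each tested member (y axis) of 4 lists, coloured where the limma adjusted p was under 0.05. Most keratins lie to the left of 0, and EGFR and ERBB2 lie to the right of 0 while EREG and TGFA lie to the left.

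Targets of YAP and TAZ, the transcriptional partners that the Hippo kinases keep out of the nucleus, were higher with shPCYT2-2 in most cases that passed. Of the 21 target genes tested, 10 were higher and 2 lower (median 0.29). ANKRD1, a cardiac ankyrin repeat protein and widely used target, lay at 2.72 and 3.24 FPKM with shPCYT2-1, 8.46 and 8.50 FPKM with shPCYT2-2 and 4.31 and 3.56 FPKM with shNT (1.25 ± 0.11, limma adjusted p = 0.000183). AXL, a receptor tyrosine kinase, lay at 3.82 and 3.88 FPKM with shPCYT2-1, 9.75 and 9.38 FPKM with shPCYT2-2 and 5.24 and 5.18 FPKM with shNT (1.12 ± 0.09, limma adjusted p = 8.9e-05). AMOTL2, an angiomotin that binds YAP, differed by 0.80 ± 0.08 (limma adjusted p = 0.000391). For all 3 the shPCYT2-2 libraries were the highest of the 6. CCN2, the growth factor the study follows under the name CTGF, went the other way, at 3.91 and 3.29 FPKM with shPCYT2-1, 2.18 and 1.76 FPKM with shPCYT2-2 and 1.65 and 1.46 FPKM with shNT (-0.63 ± 0.12, limma adjusted p = 0.00562). All 4 of its hairpin libraries were above the controls. Of the 13 Hippo components tested, 2 were higher and 2 lower (median 0.00), and 1 passed without shPCYT2-1 replicate 2. TEAD4, the DNA-binding partner of YAP, was lower (-0.42 ± 0.07, limma adjusted p = 0.00426).

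Of the proteins the study follows, YAP1, TAZ and PEBP1 did not pass at the level of RNA, and PPP2R1A and PXN did. YAP1 lay at 28.4 and 28.1 FPKM with shPCYT2-1 and 36.4 and 30.7 FPKM with shPCYT2-2 (0.24 ± 0.09, limma adjusted p = 0.0692, 95% confidence interval 0.04 to 0.43). WWTR1, which encodes TAZ, differed by 0.13 ± 0.11 (limma adjusted p = 0.434), with a 95% confidence interval -0.13 to 0.38. PEBP1, the phosphatidylethanolamine-binding protein, lay between 88.2 and 90.5 FPKM in the 4 libraries (0.01 ± 0.06, limma adjusted p = 0.883, 95% confidence interval -0.12 to 0.14). PPP2R1A, the scaffold of protein phosphatase 2A, passed the test (72.9 and 76.00 FPKM with shPCYT2-1, 58.1 and 59.2 FPKM with shPCYT2-2, -0.34 ± 0.06, limma adjusted p = 0.00487), and its controls (62.9 and 67.1 FPKM) lay between. PXN, the focal adhesion protein paxillin, was lower with shPCYT2-2 (28.98 and 30.04 FPKM) than with shPCYT2-1 (39.5 and 43.7 FPKM) or shNT (39.5 and 40.6 FPKM), a difference of -0.48 ± 0.07 (limma adjusted p = 0.0018).

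Among the study's markers of the epithelial to mesenchymal transition, CDH1, which encodes E-cadherin, differed by 0.15 ± 0.07 (limma adjusted p = 0.15) (95% confidence interval -0.01 to 0.32) and VIM, vimentin, by 0.05 ± 0.07 (limma adjusted p = 0.63) (95% confidence interval -0.10 to 0.20). SNAI1 differed by 0.17 ± 0.10 (limma adjusted p = 0.261) and SNAI2 by -0.33 ± 0.13 (limma adjusted p = 0.089), so none of these 4 passed. The repressor ZEB1 lay at 0.686 and 0.595 FPKM with shPCYT2-1 and 1.27 and 1.20 FPKM with shPCYT2-2 (0.45 ± 0.11, limma adjusted p = 0.0157), and did not pass without shPCYT2-1 replicate 1, shPCYT2-1 replicate 2 or shPCYT2-2 replicate 1. TWIST1 was listed in 1 shNT library, at 0.0215 FPKM, and CDH2 in none. Of the 29 epithelial markers tested, 7 were higher and 4 lower (median 0.05), and 6 passed without shPCYT2-1 replicate 1. TJP3, a scaffold of tight junctions, differed by 1.10 ± 0.12 (limma adjusted p = 0.000485), CLDN3, claudin 3, by 0.72 ± 0.07 (limma adjusted p = 0.000237) and CDH3, P-cadherin, by -0.65 ± 0.10 (limma adjusted p = 0.00248). Of the 15 mesenchymal markers tested, 4 were higher and 2 lower (median 0.17, but 0.06 without shPCYT2-1 replicate 1 and 0.06 without shPCYT2-2 replicate 2). Without PDGFRB and SPARC, under 0.5 FPKM with 1 hairpin, 2 of 13 were higher and 2 lower, with a median of 0.05. LOXL2, a collagen cross-linking oxidase, lay at 2.42 and 2.59 FPKM with shPCYT2-1, 8.09 and 8.64 FPKM with shPCYT2-2 and 6.23 and 6.31 FPKM with shNT (1.42 ± 0.09, limma adjusted p = 4.2e-05), whereas fibronectin (FN1, -0.66 ± 0.10, limma adjusted p = 0.00171) and tenascin C (TNC, -0.73 ± 0.11, limma adjusted p = 0.00193) were lower.

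Adhesion and matrix genes passed in both directions. Of the 32 integrin, laminin and matrix genes tested, 11 were higher and 7 lower (median 0.04). ITGA5, the fibronectin receptor chain, lay at 26.04 and 26.5 FPKM with shPCYT2-1, 47.4 and 51.8 FPKM with shPCYT2-2 and 30.8 and 30.9 FPKM with shNT (0.89 ± 0.07, limma adjusted p = 8.88e-05). ITGA2, a collagen receptor chain, lay at 9.57 and 9.19 FPKM with shPCYT2-1 and 4.23 and 3.38 FPKM with shPCYT2-2 (-1.12 ± 0.11, limma adjusted p = 0.000322), the opposite order. COL7A1, the collagen of anchoring fibrils, was lower (-0.71 ± 0.11, limma adjusted p = 0.00213). Of the 34 focal adhesion and actin genes tested, 7 were higher and 6 lower (median 0.08), and 6 passed without shPCYT2-1 replicate 1. CALD1, the actin regulator caldesmon, was higher (1.09 ± 0.09, limma adjusted p = 0.000119) and ZYX, zyxin, lower (-0.52 ± 0.10, limma adjusted p = 0.00494).

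Proteases and their inhibitors passed in both directions. Of the 12 genes of the plasminogen activator system tested, 2 were higher and 4 lower (median -0.11, but -0.20 without shPCYT2-2 replicate 1 and -0.01 without shPCYT2-2 replicate 2). Beside the lower PLAU, the protease inhibitor SERPINE2 (10.4 and 11.1 FPKM with shPCYT2-1, 22.1 and 22.1 FPKM with shPCYT2-2, 0.98 ± 0.08, limma adjusted p = 8.9e-05) was higher and the inhibitor SERPINB8 (-0.71 ± 0.10, limma adjusted p = 0.00143) lower. Of the 16 metalloproteases and inhibitors tested, 6 were higher and 3 lower (median 0.03). Without MMP24, under 0.5 FPKM with 1 hairpin, 6 of 15 were higher and 2 lower. MMP14, a membrane-bound matrix protease, was lower (-0.80 ± 0.09, limma adjusted p = 0.000474), as was ADAM17, the sheddase of EGF family ligands (-0.66 ± 0.08, limma adjusted p = 0.00052). The inhibitor TIMP3 was higher (0.77 ± 0.09, limma adjusted p = 0.000672), and so were the secreted protease MMP11 (0.84 ± 0.13, limma adjusted p = 0.00226) and ADAM8, a membrane-bound protease (0.72 ± 0.13, limma adjusted p = 0.00386).

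Downstream and parallel signals were mixed. Of the 26 genes of ERK output and feedback tested, 5 were higher and 7 lower (median -0.03), and 5 passed without shPCYT2-2 replicate 2. CCND1, cyclin D1, lay at 96.8 and 97.6 FPKM with shPCYT2-1, 199 and 196 FPKM with shPCYT2-2 and 132 and 134 FPKM with shNT (1.02 ± 0.05, limma adjusted p = 2.11e-05), so that the hairpins lay on opposite sides of the controls. The phosphatases of the pathway disagreed, DUSP6 being higher (0.49 ± 0.07, limma adjusted p = 0.00166) and DUSP4 lower (-0.52 ± 0.07, limma adjusted p = 0.00131). Of the 16 genes of the IGF axis tested, 5 were higher and 2 lower (median 0.14). IGFBP2, another binding protein, differed by 1.06 ± 0.07 (limma adjusted p = 4.38e-05) and the ligand IGF1 by 0.95 ± 0.13 (limma adjusted p = 0.00131). Of the 27 TGF-beta and BMP genes tested, 7 were higher and 3 lower (median 0.10), and 5 passed without shPCYT2-1 replicate 1. That median fell to 0.02 without shPCYT2-2 replicate 1. Without INHBA and TGFBR3, under 0.5 FPKM with 1 hairpin, 6 of 25 were higher and 2 lower. The type II receptor TGFBR2 was lower (32.2 and 30.3 FPKM with shPCYT2-1, 18.5 and 17.04 FPKM with shPCYT2-2, -0.78 ± 0.08, limma adjusted p = 0.000354), and the coreceptor TGFBR3 was higher (0.99 ± 0.11, limma adjusted p = 0.000506).

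Most of the Wnt genes and markers of the intestine that passed were higher with shPCYT2-2. Of the 36 Wnt pathway and target genes tested, 12 were higher and 1 lower (median 0.19), and 7 passed without shPCYT2-1 replicate 1. NOTUM, a secreted inhibitor of Wnt ligands, lay at 99.8 and 100.2 FPKM with shPCYT2-1, 179.5 and 166 FPKM with shPCYT2-2 and 129 and 153 FPKM with shNT (0.78 ± 0.08, limma adjusted p = 0.00036). The ligands WNT6 (1.29 ± 0.13, limma adjusted p = 0.000342) and WNT11 (0.73 ± 0.09, limma adjusted p = 0.00064) were higher too. Of the 16 genes of intestinal identity tested, 7 were higher and 1 lower (median 0.32), and 4 passed without shPCYT2-1 replicate 2 or shPCYT2-2 replicate 1. CDX2, the homeobox factor of the intestinal epithelium, lay at 10.01 and 9.88 FPKM with shPCYT2-1, 16.03 and 15.1 FPKM with shPCYT2-2 and 15.5 and 16.9 FPKM with shNT (0.60 ± 0.08, limma adjusted p = 0.0011). Its shPCYT2-1 libraries were below all others. MUC13, a transmembrane mucin (1.02 ± 0.08, limma adjusted p = 8.88e-05), and TSPAN8, a tetraspanin (0.61 ± 0.09, limma adjusted p = 0.00199), were higher as well.

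Genes of inflammation passed in both directions. Of the 17 chemokine and NF-kB feedback genes tested, 5 were higher and 4 lower (median -0.13, but -0.09 without shPCYT2-1 replicate 1). Without BIRC3, under 0.5 FPKM with 1 hairpin, 4 of 16 were higher and 4 lower. The neutrophil chemokines CXCL8 (6.17 and 7.77 FPKM with shPCYT2-1, 3.42 and 3.46 FPKM with shPCYT2-2, -0.84 ± 0.12, limma adjusted p = 0.0016) and CXCL6 (-0.96 ± 0.11, limma adjusted p = 0.000592) were lower, as was the mitochondrial dismutase SOD2 (-0.79 ± 0.09, limma adjusted p = 0.000658). ICAM1, an adhesion receptor for leukocytes, was higher (0.61 ± 0.11, limma adjusted p = 0.00505). Of the 24 interferon response genes tested, 3 were higher and 3 lower (median 0.01), and 2 passed without shPCYT2-1 replicate 1. Without OASL and 2 that did not pass, under 0.5 FPKM with 1 hairpin, 2 of 21 were higher and 3 lower. IFI6 (0.70 ± 0.08, limma adjusted p = 0.000597) was higher and the exonuclease ISG20 (-0.95 ± 0.08, limma adjusted p = 0.000135) lower. The interferon genes that passed thus did not share a direction. The share of this list that passed was near that of all tested genes, so the list did not stand out from them. Of the 13 genes of MHC class I presentation tested, 3 were higher and 1 lower (median 0.06), and 0 passed without shPCYT2-2 replicate 2. Of the 12 S100 genes tested, 3 were higher and 3 lower (median 0.01), and 3 passed without shPCYT2-1 replicate 2 or shPCYT2-2 replicate 1. S100A3 was an abundant member, at 157 and 182 FPKM with shPCYT2-1, 358 and 395 FPKM with shPCYT2-2 and 258 and 237 FPKM with shNT (1.15 ± 0.08, limma adjusted p = 6.8e-05).

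In the pathway of PCYT2 itself, the differences were modest. Of the 13 genes of phosphatidylethanolamine and phosphatidylserine synthesis tested, 2 were higher and 3 lower (median -0.08), and 1 passed without shPCYT2-1 replicate 1 or shPCYT2-2 replicate 2. The 2 that were higher were PHOSPHO1 (0.37 ± 0.10, limma adjusted p = 0.0289) and MBOAT2 (0.30 ± 0.10, limma adjusted p = 0.046). With a library left out, PHOSPHO1 lay between 0.34 and 0.40 and MBOAT2 between 0.22 and 0.39. Neither gene passed without shPCYT2-1 replicate 1, shPCYT2-1 replicate 2, shPCYT2-2 replicate 1 or shPCYT2-2 replicate 2. MBOAT2 also did not pass with no FPKM limit or with identical identifiers kept apart. SGPL1, the sphingosine-1-phosphate lyase that yields phosphoethanolamine, lay at 16.6 and 16.5 FPKM with shPCYT2-1, 12.7 and 10.6 FPKM with shPCYT2-2 and 10.2 and 10.7 FPKM with shNT (-0.47 ± 0.09, limma adjusted p = 0.00689). PTDSS1, a phosphatidylserine synthase, differed by -0.42 ± 0.10 (limma adjusted p = 0.0147) and did not pass without shPCYT2-1 replicate 1 or shPCYT2-2 replicate 2, and PEMT, which methylates phosphatidylethanolamine to phosphatidylcholine, differed by -0.30 ± 0.07 (limma adjusted p = 0.016) and did not pass without shPCYT2-1 replicate 1, shPCYT2-2 replicate 1 or shPCYT2-2 replicate 2. Of the 20 genes of phosphatidylcholine synthesis and remodeling tested, 3 were higher and 1 lower (median 0.08), and 2 passed without shPCYT2-1 replicate 1. The acyltransferases LPCAT2 (0.66 ± 0.10, limma adjusted p = 0.00216) and LPCAT4 (0.46 ± 0.08, limma adjusted p = 0.00287) were higher. Of the 25 sterol genes tested, 4 were higher and 0 lower (median 0.11, but 0.05 without shPCYT2-1 replicate 1), and 1 passed without shPCYT2-1 replicate 1 and 10 without shNT replicate 1 or shNT replicate 2, with FDFT1, squalene synthase, at 0.40 ± 0.07 (limma adjusted p = 0.00488). Of the 19 fatty acid genes tested, 4 were higher and 2 lower (median -0.07). The desaturase SCD5 was higher (1.85 and 1.43 FPKM with shPCYT2-1, 4.07 and 4.33 FPKM with shPCYT2-2, 0.98 ± 0.11, limma adjusted p = 0.000526) and the elongase ELOVL5 lower (-0.58 ± 0.07, limma adjusted p = 0.00081).

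Among nutrient genes, the amino acid transporters that passed were lower, and the hypoxia and glycolysis genes that passed went both ways. Of the 15 amino acid transporters tested, 0 were higher and 7 lower (median -0.22, but -0.10 without shPCYT2-2 replicate 2), and 2 passed without shPCYT2-2 replicate 2. SLC1A5, a glutamine carrier, lay at 1540.0 and 1543 FPKM with shPCYT2-1, 1002 and 944 FPKM with shPCYT2-2 and 1554 and 1674 FPKM with shNT (-0.66 ± 0.06, limma adjusted p = 0.000135). The shNT libraries lay with shPCYT2-1 and above both shPCYT2-2 libraries. SLC1A4, a neutral amino acid carrier, differed by -0.52 ± 0.08 (limma adjusted p = 0.00193). Of the 30 hypoxia and glycolysis genes tested, 10 were higher and 5 lower (median 0.09), and 8 passed without shPCYT2-2 replicate 2. The glucose transporter SLC2A3 lay at 267 and 292 FPKM with shPCYT2-1, 507 and 538 FPKM with shPCYT2-2 and 221 and 209 FPKM with shNT (0.90 ± 0.06, limma adjusted p = 6.67e-05), with all 4 hairpin libraries above the controls. CA9, carbonic anhydrase IX, was higher (0.57 ± 0.09, limma adjusted p = 0.00201), and PGAM1, a glycolytic mutase, was lower (-0.41 ± 0.06, limma adjusted p = 0.0015).

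Proteasome subunits leaned to lower levels. Of the 31 proteasome subunits tested, 1 was higher and 15 lower (median -0.19), and 7 passed without shPCYT2-1 replicate 1. The ATPase PSMC5 lay at 70.3 and 68.2 FPKM with shPCYT2-1, 43.3 and 42.7 FPKM with shPCYT2-2 and 57.6 and 63.8 FPKM with shNT (-0.67 ± 0.07, limma adjusted p = 0.000325), and PSMC3 (-0.60 ± 0.06, limma adjusted p = 0.000299) and the deubiquitinase PSMD14 (-0.59 ± 0.06, limma adjusted p = 0.000445) followed it. Of the 19 heat shock genes tested, 2 were higher and 6 lower (median -0.16, but -0.11 without shPCYT2-2 replicate 2), and 3 passed without shPCYT2-2 replicate 2. HSF1, the heat shock factor, was lower (-0.68 ± 0.11, limma adjusted p = 0.00251) and HSP90AA1 higher (0.58 ± 0.10, limma adjusted p = 0.00328). Of the 31 genes of the unfolded protein and integrated stress response tested, 7 were higher and 5 lower (median 0.03), and 6 passed without shPCYT2-1 replicate 1 or shPCYT2-2 replicate 1. HSP90B1, the chaperone GRP94 of the endoplasmic reticulum, lay at 77.3 and 75.8 FPKM with shPCYT2-1, 175 and 154 FPKM with shPCYT2-2 and 125 and 106 FPKM with shNT (1.09 ± 0.09, limma adjusted p = 9.55e-05), while TRIB3, a pseudokinase induced by amino acid stress, was lower (-0.68 ± 0.07, limma adjusted p = 0.000445). Of the 28 NRF2, glutathione and ferroptosis genes tested, 4 were higher and 6 lower (median 0.01), and 6 passed without shPCYT2-2 replicate 1. The peroxidase GPX2 was higher (0.79 ± 0.06, limma adjusted p = 7.53e-05) and PGD, an enzyme of the pentose phosphate pathway, lower (-0.61 ± 0.06, limma adjusted p = 0.000241). Of the 21 p53 targets tested, 4 were higher and 5 lower (median -0.00), with TP53I3 at -0.94 ± 0.13 (limma adjusted p = 0.00135). Of the 25 autophagy genes tested, 4 were higher and 6 lower (median -0.04), and 2 passed without shPCYT2-2 replicate 2.

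Genes of growth and division were read in the same way. Of the 42 genes of DNA replication and S phase tested, 1 was higher and 11 lower (median -0.21, but -0.31 without shPCYT2-2 replicate 1 and -0.07 without shPCYT2-2 replicate 2), and 4 passed without shPCYT2-1 replicate 1 or shPCYT2-2 replicate 2. RFC3, a subunit of the clamp loader, differed by -0.57 ± 0.09 (limma adjusted p = 0.00202). Of the 38 mitosis genes tested, 3 were higher and 2 lower (median -0.06), and 0 passed without shPCYT2-2 replicate 1, a share below that of all tested genes. Of the 77 ribosomal protein genes tested, 11 were higher and 2 lower (median 0.08), and 4 passed without shPCYT2-1 replicate 1 and 28 without shNT replicate 1 or shNT replicate 2. RPL17 stood out among them, at 449 and 488 FPKM with shPCYT2-1, 918 and 924 FPKM with shPCYT2-2 and 910.3 and 774 FPKM with shNT (0.97 ± 0.08, limma adjusted p = 9.55e-05), but it overlaps a readthrough gene, so its value is uncertain. Of the 75 nuclear genes of the respiratory chain tested, 3 were higher and 17 lower (median -0.11), and 7 passed without shPCYT2-1 replicate 1. NDUFS6 (-0.44 ± 0.06, limma adjusted p = 0.00109) and NDUFB9 (-0.45 ± 0.07, limma adjusted p = 0.00191), subunits of complex I, were lower, and SDHA of complex II was higher (0.31 ± 0.06, limma adjusted p = 0.00448). Of the 30 splicing factor genes tested, 5 were higher and 4 lower (median -0.07), and 5 passed without shPCYT2-1 replicate 1, shPCYT2-1 replicate 2, shPCYT2-2 replicate 1 or shPCYT2-2 replicate 2. Of the 13 genes of the RNA interference machinery tested, 1 was higher and 3 lower (median -0.11, but -0.06 without shPCYT2-2 replicate 1), and 1 passed without shPCYT2-1 replicate 1 or shPCYT2-2 replicate 1. DGCR8, the partner of Drosha, was lower (-0.53 ± 0.10, limma adjusted p = 0.00508). Whether the levels of these genes bear on the hairpins or on any other difference was not tested.

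All 6 libraries carried the markers of a colorectal epithelial line, with EPCAM between 258 and 312 FPKM and CDX2 between 9.88 and 16.9 FPKM, whereas CEACAM5 and GPA33 were below 0.5 FPKM in every library. Of the 10 colorectal epithelial markers, 8 were tested, 3 higher and 2 lower with shPCYT2-2, and 3 passed without shPCYT2-1 replicate 1 or shPCYT2-2 replicate 1. Of 8 fibroblast markers, 3 reached the limit, LUM being lower (-0.53 ± 0.11, limma adjusted p = 0.0084) and PDGFRB higher (0.48 ± 0.11, limma adjusted p = 0.0132, within the limit only through shPCYT2-2 and not passing without shPCYT2-1 replicate 1), and the defining COL3A1 and FAP were listed in no library. Of the endothelial markers 1 was tested and of the leukocyte markers 3, and none of these passed. PTPRC and MS4A1 were listed in no library, and CD68, which lysosome-rich cells of many kinds express, lay between 15.99 and 22.7 FPKM, the most abundant of the leukocyte list, with overlapping groups.

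For 28 of the 224 named genes tested (12.5%) the hairpins lay on opposite sides of shNT, each passing against shNT and against the other hairpin by limma, with 21 higher and 7 lower with shPCYT2-2. The same held for 126 of all 12771 tested genes (0.987%) and for 3.62% of the genes that passed. Named genes were picked mostly for large differences between the hairpins, so their share cannot be set against these, and the 28 were chosen for the pattern, so their values are a description. CDA and CD70 lay farthest below shNT with shPCYT2-1, with differences of -1.30 and -1.39, and above it with shPCYT2-2, by 0.40 and 0.43. DES rose the most over shNT with shPCYT2-2 among them, by 0.90, against -0.78 with shPCYT2-1, but reached the FPKM limit only through shPCYT2-2.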

How the data were processed

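Total RNA of SW480 cells had been extracted, and libraries of 3 groups (shNT, shPCYT2-1 and shPCYT2-2, 2 libraries each) were sequenced. The authors deposited 1 table per library with an Ensembl identifier and a value per gene, which was read as FPKM from the values, because fractional numbers add up to a total that differs by library, 396467 at the lowest and 402612 at the highest. A TPM scale with some genes left out would look alike. Genes without a value are not listed and were set to 0. The processing notes name GRCh38 and the mouse builds GRCm38 and mm10, and the aligner and annotation are not given in the sources used here. How many reads lie behind a value is not known, and counting intervals are left out.

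Of 21539 identifiers, 115 repeated within a library were summed, and 1045 groups whose values were identical became 1 gene each, for 19655 genes. Symbols matched for 19554 identifiers, and positions and biotypes came from GENCODE 29 (GRCh38). Genes with a mean of at least 0.5 FPKM over the 4 hairpin libraries were tested with limma 3.58.1 (R 4.3.3) after the transform log2(FPKM + 1). The fit let the variance follow the mean and had 3 groups over all 6 libraries and Benjamini-Hochberg adjustment over 12771 genes at a threshold of 0.05. Values after ± are the standard errors of the fit. The procedure was tested on simulated data, but the outcome is not reported here and lends the results no support.

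The members and lists were chosen with earlier results of these data known. Named genes are PCYT2, up to 12 in each direction with the largest difference among protein-coding genes that passed without overlap of the libraries (readthrough genes and merged identifiers left out), up to 3 in each direction of a list, and the genes the study follows. From the lists, mostly genes that passed with each library left out in turn are printed, a choice made after their values were seen. Some named genes are not reported here. Alternatives covered the pseudocount (0.1), the FPKM limit (none or 5), the replicate number as a block, the libraries in the fit, scaling, the variance model, merging, and GC content and length. Figures were drawn with matplotlib 3.10.9.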

Additional observations from a re-analysis of the deposited data

Results flagged for a closer look

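The results listed here are those of named genes whose hairpin libraries lay on opposite sides of shNT, each of the comparisons passing at a limma adjusted p under 0.05. The values are the difference shPCYT2-2 minus shPCYT2-1, which is itself the test of the difference between the hairpins. The comparisons with shNT share the same 2 control libraries, which places any error of the controls in both.

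Below shNT with shPCYT2-1 and above it with shPCYT2-2, with a difference over 1 between the hairpins, were CD70 (1.81), CDA (1.71), DES (1.68), MYBPC2 (1.61), SPIB (1.56), COL6A1 (1.53), TNFAIP2 (1.43), LOXL2 (1.42), S100A3 (1.15), AXL (1.12), CALD1 (1.09), HSP90B1 (1.09), MUC13 (1.02) and CCND1 (1.02). The same order, with a smaller difference, was seen for SCD5 (0.98), SERPINE2 (0.98), ITGA5 (0.89), NOTUM (0.78), TIMP3 (0.77), IFI6 (0.70) and MANF (0.53). Above shNT with shPCYT2-1 and below it with shPCYT2-2 were CPLX2 (-1.59), DCTN1 (-1.39), KRT17 (-1.34), MMP14 (-0.80), TRIB3 (-0.68), PGD (-0.61) and PSMC3 (-0.60). Of the genes listed here, DES reached the FPKM limit only through shPCYT2-2, so its passing between the hairpins is no support.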

How the results depend on the processing

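The count of genes that passed rested most on the hairpin libraries. Leaving out 1 library at a time gave between 1691 and 3780, against 3477 with all 6, with 895 to 1771 genes higher and 788 to 2009 lower with shPCYT2-2. Of the 3477 genes, 46.9% passed in the same direction without shPCYT2-1 replicate 1, 56.9% without shPCYT2-1 replicate 2, 60.5% without shPCYT2-2 replicate 1 and 51.8% without shPCYT2-2 replicate 2. A group left with 1 library was assumed to vary like the others. Under the other settings the count lay between 2547 (no FPKM limit, 19075 genes tested) and 4410 (GC content and length trend removed). PCYT2 kept its side of the threshold throughout, at -0.20 to -0.09 with a library left out. Of the named genes, 2 turned sign, both far from the threshold: PEBP1 lay between -0.0026 (without shPCYT2-1 replicate 2) and 0.031 (without shPCYT2-1 replicate 1), and VIM between -0.021 (without shPCYT2-1 replicate 1) and 0.12 (leaving out shPCYT2-1 replicate 2). The median of the epithelial markers turned to -0.015 once trends on GC content and length were taken out. With 1 library left out, the medians of 9 of the 39 lists with at least 10 tested members turned sign, all of them at most 0.0833 in size with all 6 libraries. The causes were not tested.

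Same-numbered libraries deviated together weakly (correlations of 0.0058, 0.057 and 0.19 between groups), the largest being that between the hairpins. The sources used here do not say whether the numbers pair the samples, and these correlations cannot decide it. With the replicate number as a block, 3885 genes passed, 98.8% of the 3477 among them. With 2 libraries a group, the precision is limited by their number, and differences of low genes are understated on the log2(FPKM + 1) scale.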

Other observations

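Some of the largest differences are not covered by the rule for named genes, and these genes were picked with their values in view. SAA1, an acute phase protein, lay at 0.696 and 0.522 FPKM with shPCYT2-1 and 4.06 and 3.92 FPKM with shPCYT2-2 (1.63 ± 0.11, limma adjusted p = 4.2e-05). KRTAP2-3, a hair keratin-associated protein with close copies beside it, lay at 8.01 and 7.55 FPKM with shPCYT2-1 and 1.66 and 1.67 FPKM with shPCYT2-2 (-1.72 ± 0.10, limma adjusted p = 3.1e-05). For both, identifiers with identical values had been merged. CUTA lay at 55.7 and 52.9 FPKM with shPCYT2-1, 9.33 and 17.5 FPKM with shPCYT2-2 and 43.4 and 39.5 FPKM with shNT (-1.999 ± 0.21, limma adjusted p = 0.00036), and was also merged. ARPC1A, a subunit of the Arp2/3 complex that nucleates branched actin, lay at 119 and 117 FPKM with shPCYT2-1, 51.97 and 49.2 FPKM with shPCYT2-2 and 72.6 and 73.2 FPKM with shNT (-1.21 ± 0.06, limma adjusted p = 2.1e-05). For CUTA and ARPC1A, both shPCYT2-2 libraries lay below both shNT libraries.

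By chromosome, the share of tested genes that passed lay between 18.9% (42 of 222 on chromosome 13) and 36.8% (140 of 380 on chromosome 20), and the median difference between -0.06 on chromosome 16 and 0.05 on chromosome 21. No chromosome as a whole was therefore far from the median of all tested genes, -0.02. Of the leading genes, DES and TMEM198 lie 116924 bases apart on chromosome 2 and differed in opposite directions.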
